A study of Homo sapiens with 12 samples.

Results

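SKBR3, a human breast cancer line with amplified HER2 (ERBB2), was compared with and without the cytokine TWEAK. The comparison rests on the 6 SKBR3 RNA-seq libraries among the 12 of the series, 3 from TWEAK-treated and 3 from untreated cells, which were chosen by the cell line and treatment in their labels. The other 6 libraries are from MDA-MB-453, another line that the study classes as HER2, and enter only where the response of SKBR3 is set against it. Cells of every group were seeded in DMEM with serum for 24 h and starved in Opti-MEM for 8 h, and the treated cells then received 10 ng/ml TWEAK for 48 h with a second dose after 24 h. The labels give the untreated libraries the same protocol text and do not say what these cells received in place of TWEAK. The values describe 1 cell line in culture, and in bulk RNA a change in the number of cells that make a transcript cannot be told apart from a change in its amount per cell.

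TWEAK (TNFSF12) is a ligand of the TNF superfamily that binds Fn14, the small receptor encoded by TNFRSF12A. Clustered Fn14 draws TRAF2, TRAF3 and the cIAP ligases away from the kinase NIK, which is then no longer degraded and, through IKKα, drives processing of p100 to p52. The p52/RelB dimer and the canonical p50/RelA dimer enter the nucleus and switch on genes for cytokines, adhesion molecules, antigen presentation, matrix remodelling and for their own inhibitors.

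The SKBR3 libraries held between 24842722 and 28647209 counts, and 15661 genes had enough counts to be tested. The line was recognised by its amplicon and its epithelial keratins: ERBB2 stood at 7260.3 ± 268 CPM (counts scaled to the library total, adjusted with edgeR's TMM factors; mean ± SD, n = 3) in untreated cells and KRT8 at 4740.1 ± 221. CDH1 (E-cadherin), VIM, PGR, KRT14 and PECAM1 lay below 0.3 CPM on average in both groups, as did the leukocyte marker PTPRC, whereas COL1A1, listed among genes this line should lack, was present at 18.4 ± 1.36 CPM. Per kilobase of all annotated exon sequence the untreated cells carried 703 CPM of ERBB2, 1533 of KRT19, 56.7 of FOXA1 and 0.0348 of ESR1; per kilobase of the longest transcript the values were 1473, 2577, 71.3 and 0.0738. One library stood apart. Counts of TWEAK replicate 2 differed from those of TWEAK replicates 1 and 3 by a chi-square of 18.7 and 21.1 per degree of freedom, against 1.70 to 5.20 in the other pairs of replicates, and its deviations from the group mean correlated across genes with gene length at a Spearman rho of -0.57 and with GC content at 0.45. In the other libraries these correlations ran from -0.33 to 0.47 and from -0.45 to 0.58. Deviations cancel out within a group, so those of TWEAK replicates 1 and 3 in part mirror replicate 2. Among the untreated libraries alone the correlations ran from -0.33 to 0.27 with length and from -0.41 to 0.58 with GC content. Such dependence thus also occurred in the untreated group. The study describes its RNA-seq replicates as biological, and the p-values below measure the spread between these libraries. Whether reads were counted by strand is not given in the sources used here, so values of genes that overlap others on the opposite strand are less certain. Among the genes described, such exons covered 63.2% of the exon length of FTH1, 39.6% of ARG2 and 32.1% of ALDH1A3, and between 11.1% and 28.4% of KMO, MIEN1, ICAM1, VIM, IRF1, TUBA1C, SQSTM1, CDCA7L, TAPBP, ATF5, LAPTM5, MMP9, IGFBP7, KRT18, TFAP2A, MAP3K14, HLA-B, TAP1, JUNB, TUBB, CYP1B1, BHLHE40, CEBPB and CORO1A. On the same strand, other genes overlapped between 12.1% and 55.5% of TNFSF12, TNFSF13, REL, HLA-B, TRIM16, TRIM16L, PVR, MT1X and MYCBP.

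TWEAK changed 1633 of the 15661 tested genes at an adjusted p of 0.1 or less, the false discovery rate used in the study. Of these, 1034 (6.6% of tested genes) were higher and 599 (3.82%) lower in TWEAK-treated cells, by edgeR's two-sided quasi-likelihood test with Benjamini-Hochberg adjustment, and both shares serve below as the background for every gene list. Rises were larger than falls: 320 genes rose and 37 fell by 2-fold or more, and 100 rose and 2 fell by 4-fold or more. The median log2 fold change was 0.63 among the genes that rose, -0.38 among those that fell and -0.0074 over all tested genes. In 1627 of the 1633 genes every TWEAK-treated library lay on one side of every untreated library, an arrangement seen in 26.7% of all tested genes. Protein-coding genes made up 947 of the rises and 560 of the falls, and long non-coding RNAs 66 and 31.

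**Figure D1:**
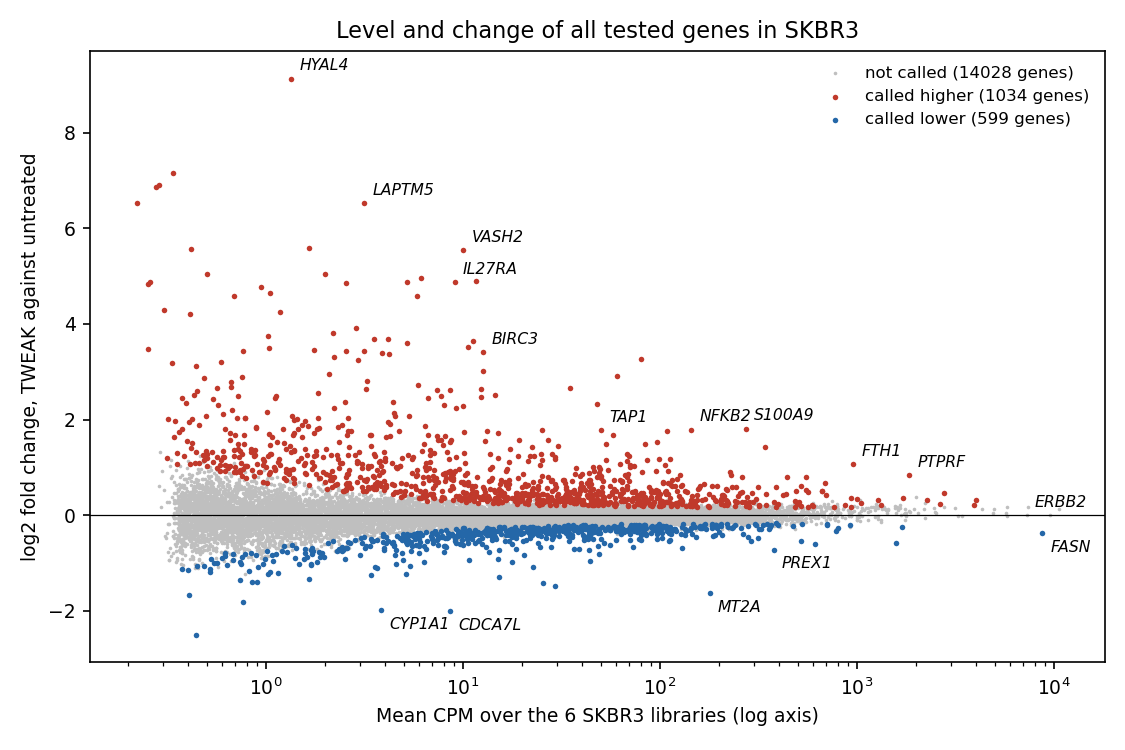
Each point is 1 of 15661 tested genes, with its mean level over the 6 SKBR3 libraries in CPM on a log axis and its log2 fold change for TWEAK against untreated on the vertical axis. Red points (1034) were called higher and blue points (599) lower. Rises reach far above a log2 value of 2, while 2 falls pass -2.

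The number of changed genes depended on single libraries more than their direction did. Without TWEAK replicate 2 there were 1589 rises and 1191 falls, which included 1011 of the 1034 and 575 of the 599. Leaving out an untreated library gave 694 and 284 (replicate 1), 686 and 240 (replicate 2) or 851 and 327 (replicate 3). With the counts corrected for the GC content and length of each gene, 1455 genes rose and 1737 fell, so falls then outnumbered rises. In all 6 fits that leave out 1 library, 618 rises and 196 falls kept their call, and 146 of the 198 named genes with a call did so. In 15 of the gene lists below no member fell by edgeR's test; in each of these at most 2 members were lower at an unadjusted p of 0.05 or less, and DESeq2 called none. Without TWEAK replicate 2, 7 of these 15 lists had between 1 and 4 falls, and leaving out any of the other 5 libraries gave none. A left-out library is named beside a list where it moved a count of calls above 0 by more than 1.5-fold. The correction for GC content and length raised the falls by more than 1.5-fold in 28 of the 41 lists and the rises in 10, and lowered neither by as much in any list. Falls then outnumbered rises among the luminal factors, in hypoxia and glycolysis and among the vasohibins and tubulins, where rises had been more numerous.

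The 12 largest rises among called genes with a mean of at least 1 CPM were in genes that untreated SKBR3 cells barely transcribed. HYAL4, an enzyme of the hyaluronidase family (chr7:123828983-123877481, hg38, plus strand), had no count in any untreated library and 86, 52 and 69 counts in the TWEAK-treated ones, at least 23.6-fold above a limit of 3 counts per library. SLC28A3, a nucleoside transporter, had 3, 1 and 1 counts without and 84, 98 and 70 with TWEAK, at least 28.7-fold. LAPTM5, a lysosomal membrane protein known from haematopoietic cells, went from 1, 4 and 0 to 128, 190 and 163 counts. Every TWEAK-treated library exceeded every untreated one by a wide margin in these genes, and 16 rises in all started from untreated libraries with no more than 3 counts each.

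VASH2, a tubulin carboxypeptidase that removes the C-terminal tyrosine of α-tubulin (chr1:212950520-212992037, plus strand), was at 0.414, 0.396 and 0.434 CPM in untreated and 21.4, 15.9 and 21.6 CPM in TWEAK-treated libraries. The 3 treated libraries lay far above the untreated ones, with TWEAK replicate 2 the lowest of them. Its log2 fold change was 5.55 ± 0.20 (SE, adjusted p = 3.8e-08). IL27RA, a receptor chain for interleukin-27 (chr19:14031762-14053218, plus strand), was at 0.414, 0.753 and 0.632 CPM without and 16.4, 18.5 and 17.8 CPM with TWEAK, a log2 fold change of 4.88 ± 0.16 (adjusted p = 2.2e-08). ITGAM, the integrin αM chain, was at 0.690, 0.555 and 1.03 CPM without and 22.6, 21.3 and 24.0 CPM with TWEAK (log2 fold change 4.90 ± 0.15, adjusted p = 2.2e-08). For both genes the treated libraries lay close together and none approached the untreated range.

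CXCL14, a chemokine, rose from 0.0690–0.159 to 3.20–5.12 CPM (lowest and highest library of each group), and KRT2, an epidermal keratin, from 0.276–0.434 to 8.78–11.2 CPM. The log2 fold changes were 5.04 and 4.87. CLEC7A (dectin-1, a receptor for fungal glucans) rose from 0.118–0.238 to 3.85–5.68 CPM, IL22RA2 (a soluble binding protein for interleukin-22) from 0.0345–0.158 to 1.62–2.42 CPM, and UNC13A (a vesicle-priming protein of synapses) from 0.238–0.592 to 10.9–11.7 CPM. The ranking took only called genes whose groups did not overlap. The adjusted p was at most 3.2e-05 for all of the 12 except HYAL4 at 4.1e-05. The calls of all 12 held in each of the 6 fits with a library left out.

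The 12 largest falls were smaller. They started from higher levels, in part because the minimum mean of 1 CPM lets a rise pass through its treated libraries and a fall through its untreated ones. CDCA7L, a nuclear protein that interacts with MYC (chr7:21900899-21945903, minus strand), was at 13.3, 15.1 and 13.1 CPM in untreated and 3.27, 3.39 and 3.66 CPM in TWEAK-treated libraries, so that TWEAK left 0.249 of the untreated level (log2 fold change -2.01 ± 0.11, adjusted p = 6.5e-07). CYP1A1, the cytochrome P450 induced by the aryl hydrocarbon receptor, was at 5.10, 5.71 and 7.54 CPM without and 1.19, 1.58 and 1.83 CPM with TWEAK (log2 fold change -1.99 ± 0.20, adjusted p = 8.3e-05). MT2A, the most abundant metallothionein transcript here, was at 251, 260.1 and 299 CPM without and 78.2, 103 and 82.4 CPM with TWEAK (log2 fold change -1.62 ± 0.10, adjusted p = 2.6e-06). In each of the 3 the highest treated library lay well below the lowest untreated one. Of 18 tested genes of the MYC network and the CDCA7 family, CDCA7L fell together with CDCA7 and MYCBP (by 0.32 and 0.28 on the log2 scale), which were both lost without untreated replicate 2 or 3 or TWEAK replicate 1 (adjusted p up to 0.23 and 0.25).

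COL5A2, a fibrillar collagen chain, fell from 39.2–47.7 to 14.3–16.5 CPM, and GPRC5A, an orphan receptor induced by retinoic acid, from 35.9–38.5 to 13.2–15.5 CPM. PLCE1, a phospholipase C that binds Ras, fell from 19.6–23.0 to 8.62–8.98 CPM, and SH3PXD2A (TKS5, a scaffold of invadopodia) from 4.66–4.96 to 1.77–2.42 CPM. MT1G, another metallothionein, fell from 6.87–7.65 to 2.50–3.85 CPM. LRRC15, CBLN2, PGM5-AS1 and KRT3, all below 3 CPM, had log2 fold changes of -1.34, -1.23, -1.21 and -1.18. Of the 12, PGM5-AS1 lost its call without untreated replicate 3 or TWEAK replicate 1, and KRT3 without any of the untreated replicates or TWEAK replicate 1, with adjusted p up to 0.13 and 0.16 over the alternative fits.

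**Figure D2:**
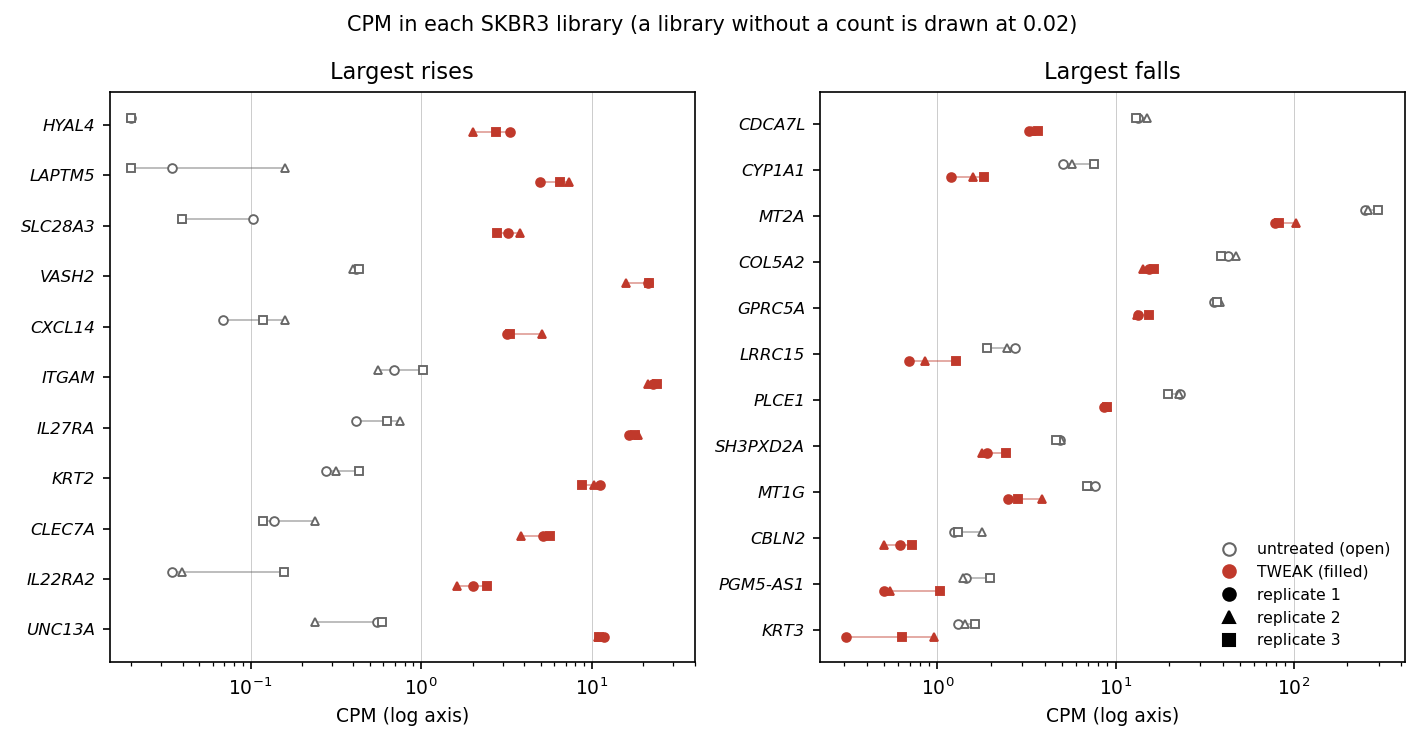
Levels of 11 of the 12 largest rises (left) and the 12 largest falls (right) in each SKBR3 library, in CPM on log axes. Open symbols are untreated and filled red symbols TWEAK-treated libraries, the symbol shape gives the replicate, and a line joins the lowest and highest library of a group. The rises start mostly below 1 CPM, whereas MT2A falls from above 200 CPM. No pair of groups overlaps, which the choice of genes required.

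By abundance, the response was carried by other genes. Summed over genes, the mean level changed by 23843 CPM in the rises and by -10844 CPM in the falls. The single largest gain was in PTPRF, a receptor tyrosine phosphatase of cell contacts, with 1334, 1300.5 and 1340.1 CPM in untreated and 2452, 2159 and 2465 CPM in TWEAK-treated libraries (log2 fold change 0.83 ± 0.065, adjusted p = 1.2e-05). KRT19 (from 3446–3808 to 4082–5185 CPM) and KRT7 (from 2246–2482 to 2892–3749.6 CPM), both simple-epithelial keratins, came next, followed by FTH1, the ferritin heavy chain, which rose from 596–655 to 1168–1493 CPM. TWEAK replicate 2 was the highest library for KRT19, KRT7 and FTH1 and the lowest treated one for PTPRF. KRT19 lost its call without untreated replicate 1 or 2 (adjusted p up to 0.25), and 63.2% of the exon length of FTH1 overlaps exons of genes on the opposite strand, whose reads cannot be told apart if the counting ignored strand. MT-RNR2, MAL2, EEF2 and PSAP completed the 8 largest gains, with log2 fold changes from 0.21 to 0.36; the calls of MT-RNR2 and EEF2 were lost without untreated replicate 1 or 2, and that of MT-RNR2 also without TWEAK replicate 1 (adjusted p up to 0.22 and 0.19).

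The largest loss in CPM was in FASN, the fatty acid synthase, with 9296, 9845 and 10334 CPM in untreated and 7589, 7073 and 8181 CPM in TWEAK-treated libraries (log2 fold change -0.37 ± 0.070, adjusted p = 0.0077). H19, an imprinted long non-coding RNA, was at 1859.6, 1784 and 2002 CPM without and 1207, 1409 and 1184 CPM with TWEAK (log2 fold change -0.57 ± 0.077, adjusted p = 0.00072). SLC7A5, the light chain of the amino acid transporter LAT1, fell from 717–752 to 474–513 CPM. PREX1, an exchange factor for Rac, fell from 464–476 to 262–303 CPM, and XBP1, a secretory-pathway transcription factor, from 864–872 to 673–702 CPM. SCD, the stearoyl-CoA desaturase, fell by 0.25 on the log2 scale and lost its call without any 1 of the untreated replicates (adjusted p up to 0.16), and MT2A was also among the 8 largest losses.

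The genes of the receptor and its own pathway mostly rose. Of 14 tested members of the TWEAK receptor and non-canonical NF-κB list, 9 rose and none fell, with a median log2 fold change of 0.70. TRAF1 had enough counts to be tested only through its treated libraries. With at least 10 counts demanded in every library, 8 members rose. The ligand TNFSF12 had no count in any SKBR3 library, and neither had the readthrough transcript with TNFSF13 that shares 12.1% of its exon length. The receptor TNFRSF12A was at 58.4, 62.9 and 69.3 CPM in untreated and 79.5, 91.5 and 74.4 CPM in TWEAK-treated libraries. The treated libraries lay just above the untreated ones, with a log2 fold change of 0.36 ± 0.090 (adjusted p = 0.032), and the call was lost without untreated replicate 1 or 2 (adjusted p up to 0.17).

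Among the adaptors, BIRC3 (cIAP2, a ubiquitin ligase of the receptor complex) was at 2.17, 2.14 and 2.17 CPM without and 23.4, 21.8 and 24.2 CPM with TWEAK, a 10.7-fold rise (log2 fold change 3.42 ± 0.099, adjusted p = 1.9e-08). TRAF1 was at 0.310, 0.595 and 0.316 CPM without and 4.35, 4.39 and 3.30 CPM with TWEAK (log2 fold change 3.30 ± 0.25, adjusted p = 1e-05). Both genes were low in untreated cells and high in every treated library. TRAF2 rose from 45.0–50.5 to 79.2–92.8 CPM and TRAF3 from 36.7–37.4 to 46.9–58.3 CPM, by 0.84 and 0.55 on the log2 scale. BIRC2 (cIAP1), the paralogue of BIRC3, was at 45.5–51.9 CPM without and 55.6–60.02 CPM with TWEAK and did not pass the test (log2 fold change 0.21 ± 0.072, adjusted p = 0.12).

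Downstream, MAP3K14 (NIK) was at 9.45, 10.1 and 9.75 CPM without and 28.9, 30.4 and 27.1 CPM with TWEAK (log2 fold change 1.56 ± 0.079, adjusted p = 4.8e-07). NFKB2 (p100/p52) was at 62.1, 64.0 and 67.5 CPM in untreated and 216, 243 and 211 CPM in TWEAK-treated libraries (log2 fold change 1.79 ± 0.072, adjusted p = 9.3e-08). RELB was at 15.4, 14.99 and 18.6 CPM without and 41.3, 51.9 and 39.7 CPM with TWEAK (log2 fold change 1.44 ± 0.12, adjusted p = 1.7e-05). All 3 had about 3-fold levels under TWEAK, with 2.96-, 3.46- and 2.71-fold changes, and TWEAK replicate 2 was the highest library for each. CHUK (IKKα) overlapped between the groups (26.7–31.3 CPM without and 22.2–29.9 CPM with TWEAK, adjusted p = 0.77).

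Of the 25 tested members of the canonical NF-κB and feedback list, 11 rose and 1 fell, with a median log2 fold change of 0.22. Inhibitors of NF-κB led the list. TNFAIP3 (A20, a ubiquitin-editing enzyme) was at 7.48, 7.69 and 8.93 CPM without and 21.1, 18.0 and 19.5 CPM with TWEAK (log2 fold change 1.28 ± 0.099, adjusted p = 1.1e-05). NFKBIE (IκBε) was at 13.7, 14.4 and 15.4 CPM without and 32.7, 40.5 and 32.3 CPM with TWEAK (log2 fold change 1.28 ± 0.10, adjusted p = 1.2e-05). TNIP1, which binds A20, rose from 156–175 to 276–325 CPM, and NFKBIA (IκBα) from 77.0–83.1 to 119–137 CPM. Of the subunits, NFKB1 (p105/p50) rose from 62.8–70.6 to 89.7–96.4 CPM (log2 fold change 0.47 ± 0.067, adjusted p = 0.00099), whereas RELA (84.3–94.9 CPM without and 91.6–101 CPM with TWEAK, adjusted p = 0.59) and REL (12.99–18.8 CPM without and 10.0–24.1 CPM with TWEAK, adjusted p = 0.74) overlapped between the groups. REL was spread most widely within the treated group, where TWEAK replicate 2 was the lowest library. BCL3, an atypical IκB that binds p50 and p52, fell by 0.28 on the log2 scale, a call lost without untreated replicate 1 or 3 or TWEAK replicate 1 (adjusted p up to 0.15).

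**Figure D3:**
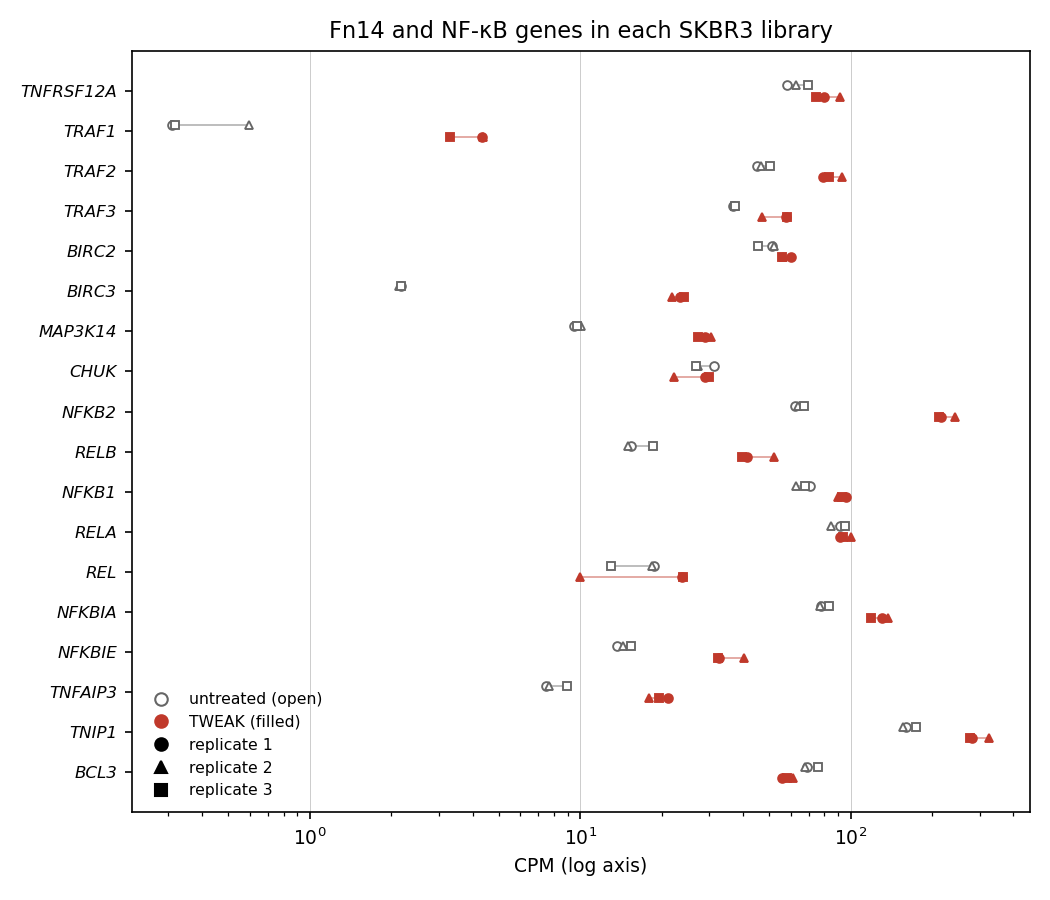
CPM of 18 genes of the Fn14 and NF-κB pathways in each of the 6 SKBR3 libraries, on a log axis. Open symbols are untreated, filled red symbols TWEAK-treated, and shapes give the replicate. TRAF1 and BIRC3 show the widest gaps between the groups, while CHUK, RELA and REL overlap.

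The promoters of these genes were searched for the NF-κB site consensus, a motif of 10 bases read on both strands, in the 250 bases upstream of the RefSeq start (GRCh38.p14). Promoter sequences matched 69.7% of the tested genes. The consensus stood in 92 of the 755 promoters of genes that rose (12.2%, 95% Wilson interval 10.0% to 14.7%), in 24 of the 456 of genes that fell (5.26%, 3.56% to 7.71%) and in 645 of the 10920 of all tested genes (5.91%, 5.48% to 6.36%). Within 100 bases upstream the shares were 5.83%, 1.10% and 2.18%. The sequences are RefSeq's, and a match is a string of letters, not a bound site.

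Among the called genes of both NF-κB lists, 5 of the 18 with a promoter sequence held a match, and 1 of the 8 among the 12 largest rises, IL27RA. The stretches are shown because they are the matches in called genes of this pathway and in the 12 largest rises. Each is written 5′ to 3′ on the strand of the gene, with the matched bases in capitals; for BIRC3, NFKBIA and TNFAIP3 the consensus reads on the opposite strand. The match ends 190 and 126 bases upstream of the start in BIRC3, 59 in IL27RA, 40 in NFKB1, 72 in NFKBIA, 58 and 46 in TNFAIP3 and 24 in TRAF3, and the printed TNFAIP3 stretches overlap.
BIRC3, chr11:102317275-102317304, plus strand: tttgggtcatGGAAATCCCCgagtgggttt
BIRC3, chr11:102317339-102317368, plus strand: tattaccgctGGAGTTCCCCtaagtcctaa
IL27RA, chr19:14031684-14031713, plus strand: gccccagccgGGGACTTTCCgtcgcgggga
NFKB1, chr4:102501300-102501329, plus strand: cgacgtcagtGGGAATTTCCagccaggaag
NFKBIA, chr14:35404811-35404840, minus strand: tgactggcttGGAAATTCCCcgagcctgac
TNFAIP3, chr6:137867182-137867211, plus strand: acgtgactttGGAAAGTCCCgtggaaatcc
TNFAIP3, chr6:137867194-137867223, plus strand: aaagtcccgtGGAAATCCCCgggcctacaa
TRAF3, chr14:102777406-102777435, plus strand: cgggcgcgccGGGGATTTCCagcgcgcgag

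Not every gene with a large change had a match. NFKB2, MAP3K14 and TRAF1, which rose by 1.79, 1.56 and 3.30 on the log2 scale, had none in this window, and neither did VASH2. RELB, NFKBIE, TNFRSF12A, HYAL4, SLC28A3 and CLEC7A had no promoter sequence in the table.

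Receptors and ligands of the TNF superfamily other than TWEAK and Fn14 also moved. Of 21 tested members 9 rose and 2 fell, with a median of 0.22. FAS was tested through its treated libraries, and 6 members rose with at least 10 counts demanded in every library. FAS, the receptor of Fas ligand, was at 0.448, 0.238 and 0.158 CPM in untreated and 3.93, 3.85 and 4.57 CPM in treated libraries (log2 fold change 3.81 ± 0.26, adjusted p = 4.3e-06). TNFSF15 (TL1A) rose from 0.483–0.912 to 2.27–3.14 CPM, TNFRSF1B (TNF receptor 2) from 0.448–0.872 to 1.95–2.54 CPM and TNFRSF21 (death receptor 6) from 25.3–27.1 to 43.9–52.4 CPM. TNFRSF11B (osteoprotegerin, a decoy receptor) fell from 2.18–2.79 to 0.962–1.66 CPM and TNFSF13 (APRIL), which shares 55.5% of its exon length with the same readthrough, from 8.48–9.21 to 5.97–6.97 CPM. The 9 rises became 5 without untreated replicate 1 or 2, and TNFRSF11B was lost without untreated replicate 1 (adjusted p up to 0.11).

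Of 52 listed interleukins, IL-6 family genes and their receptors, 32 had enough counts to be tested, IL34 through its treated libraries. The share of rises is therefore not a measure of the list. Of the 32 tested members 18 rose and 1 fell, with a median of 0.42. The rises numbered 13 to 17 when 1 library was left out, and 13 with at least 10 counts demanded in every library. Beside IL27RA, IL34, a ligand of the CSF1 receptor, went from 5, 0 and 4 to 46, 57 and 69 counts (log2 fold change 4.25 ± 0.43, adjusted p = 9.4e-05). CSF1 (M-CSF) rose from 2.14–2.45 to 5.51–5.97 CPM by 1.33 on the log2 scale. IL6ST (gp130, the shared signalling receptor of the IL-6 family) was at 65.0, 60.8 and 54.7 CPM without and 154, 101 and 155 CPM with TWEAK (log2 fold change 1.18 ± 0.14, adjusted p = 0.00032). TWEAK replicate 2 was the lowest treated library for IL6ST and still lay above all untreated ones. IL1RAP, the IL-1 receptor accessory chain, fell from 18.8–20.3 to 14.4–15.02 CPM.

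Few chemokines were measurable. Of 30 listed, 7 had enough counts, and 3 rose: CXCL14, CXCL16 (from 6.14–6.94 to 10.8–11.6 CPM) and CX3CL1 (from 91.1–104 to 106–125 CPM). CXCL14 was tested through its treated libraries, so the share of rises is not a measure of the list. CXCL16 and CX3CL1 are the chemokines made as membrane-anchored proteins. The call of CX3CL1 (log2 fold change 0.28 ± 0.078) was lost without untreated replicate 1 or 2 or TWEAK replicate 1 (adjusted p up to 0.24), and without a filter on low counts 6 chemokines passed.

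Genes of antigen presentation by MHC class I were the list with the largest share of rises. Of 21 tested members 15 rose and none fell, with a median log2 fold change of 0.78, and 13 to 16 rose in the fits with 1 library left out. PSMB9 was tested through its treated libraries, and 13 members rose with at least 10 counts demanded in every library. PSMB9, a catalytic subunit of the immunoproteasome, was at 0.483, 0.357 and 0.671 CPM in untreated and 5.81, 7.39 and 6.52 CPM in TWEAK-treated libraries (log2 fold change 3.70 ± 0.20, adjusted p = 8.7e-07). TAP1, the peptide transporter, was at 22.0, 23.2 and 22.6 CPM without and 75.0, 81.8 and 76.7 CPM with TWEAK (log2 fold change 1.79 ± 0.067, adjusted p = 5.9e-08). Its partner in peptide loading, TAPBP (tapasin), was at 26.3, 26.8 and 31.2 CPM without and 81.5, 70.9 and 82.7 CPM with TWEAK (log2 fold change 1.48 ± 0.089, adjusted p = 1.7e-06). HLA-B, one of the classical heavy chains, was low in SKBR3 and rose from 1.52–1.82 to 4.69–6.12 CPM, though reads of the near-identical HLA genes may be split between them. In all 4 genes the lowest treated library exceeded the highest untreated one more than 2-fold.

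Interferon-stimulated genes rose with them: 20 of 51 tested members rose and none fell, with a median of 0.36. DTX3L, a ubiquitin ligase that partners PARP9, rose from 1.94–2.57 to 6.77–7.70 CPM, PARP14 from 0.483–0.991 to 2.54–2.89 CPM and GBP1, a guanylate-binding protein, from 0.396–0.592 to 1.54–1.66 CPM. IRF1, a transcription factor of the interferon response, was at 6.45, 6.03 and 7.27 CPM without and 13.3, 15.1 and 13.7 CPM with TWEAK (log2 fold change 1.09 ± 0.10, adjusted p = 4.3e-05). The rises numbered 14 to 23 with 1 library left out.

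Secreted defence and acute-phase genes and the S100 family shared their leading members. Of 25 tested defence genes 9 rose and 2 fell. S100A8 was at 14.8, 15.1 and 14.97 CPM in untreated and 133, 172 and 129 CPM in treated libraries (log2 fold change 3.27 ± 0.11, adjusted p = 3.5e-08), and S100A9, with which it forms calprotectin, at 112, 125 and 127 CPM without and 391.9, 486 and 396 CPM with TWEAK (log2 fold change 1.81 ± 0.091, adjusted p = 4.8e-07). TWEAK replicate 2 was the highest library for both. PLAAT4 rose from 1.10–2.34 to 3.93–5.56 CPM and ORM1 (orosomucoid) from 0.553–0.952 to 1.67–2.12 CPM, while TFF3 (trefoil factor 3, from 6.86–9.86 to 3.47–5.54 CPM) and MUC1 (from 49.1–57.1 to 34.5–41.3 CPM) fell. Of 15 tested S100 genes 5 rose and none fell; leaving out untreated replicate 1 made it 2, untreated replicate 2 made it 3, and TWEAK replicate 3 made it 9. It rested on small changes such as that of S100A11 (0.24 ± 0.074 on the log2 scale, adjusted p up to 0.30) and on S100A3, which was lost without untreated replicate 1 or 2.

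Surface molecules that lymphocytes recognise went both ways. Of 26 tested, 12 rose and 3 fell, with a median of 0.12. ICAM1, the ligand of the integrin LFA-1, was at 3.72, 3.57 and 3.99 CPM without and 20.7, 23.3 and 19.0 CPM with TWEAK (log2 fold change 2.48 ± 0.11, adjusted p = 1.7e-07). CD274 (PD-L1) was at 4.59, 3.85 and 3.59 CPM without and 10.5, 9.55 and 8.78 CPM with TWEAK (log2 fold change 1.26 ± 0.12, adjusted p = 6.6e-05). The butyrophilins BTN3A3 and BTN2A2, relatives of the B7 molecules, rose by 1.24 and 1.17 on the log2 scale. VTCN1 (B7-H4), the most abundant of the named members, fell from 172–178 to 125–131 CPM, PVR (CD155) from 118–126 to 93.3–99.8 CPM and ICOSLG from 5.75–6.65 to 4.43–4.81 CPM. The 3 falls became 5 without TWEAK replicate 2, and that of ICOSLG was lost without untreated replicate 1 or 3 (adjusted p up to 0.20).

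Adhesion and matrix genes formed another large group of changes. Of 26 tested integrin and laminin genes 12 rose and 1 fell. ITGB8, an integrin chain that binds latent TGF-β, was at 1.10, 0.753 and 0.790 CPM without and 7.12, 4.27 and 5.33 CPM with TWEAK (log2 fold change 2.64 ± 0.24, adjusted p = 4.1e-05). LAMC1, a laminin γ chain, rose from 1.07–1.28 to 3.35–4.65 CPM. ITGB5 fell by 0.19 on the log2 scale, a call lost in 5 of the 6 fits with a library left out (adjusted p up to 0.24), all but that without TWEAK replicate 2.

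The collagens did not move as a block. Of 21 tested, 7 rose and 3 fell. COL5A1 was at 50.4, 47.7 and 50.4 CPM without and 174, 160.0 and 167 CPM with TWEAK (log2 fold change 1.75 ± 0.063, adjusted p = 3.8e-08), whereas COL5A2, whose product joins that of COL5A1 in type V collagen, went from 43.0, 47.7 and 39.2 to 15.4, 14.3 and 16.5 CPM (log2 fold change -1.49 ± 0.092, adjusted p = 1.9e-06). The treated and untreated libraries were apart for both genes, in opposite directions. COL16A1 rose from 14.8–16.8 to 72.0–90.7 CPM, COL4A1, a basement-membrane chain, from 1.94–2.25 to 9.97–12.6 CPM and COL27A1 from 0.592–0.828 to 7.20–8.11 CPM. The other 2 falls, COL15A1 (-0.53) and COL9A2 (-0.34), were lost without any 1 of the untreated replicates or TWEAK replicate 1 (adjusted p up to 0.30 and 0.26), so the falls numbered 1 in those fits, and 5 without TWEAK replicate 2.

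Of 37 tested matrix proteases and inhibitors 11 rose and 1 fell. MMP9 (gelatinase B) was at 3.21, 2.78 and 4.34 CPM without and 20.9, 22.9 and 20.1 CPM with TWEAK (log2 fold change 2.63 ± 0.14, adjusted p = 5.1e-07). MMP13 (collagenase 3) was at 2.48, 3.05 and 2.57 CPM without and 16.1, 11.7 and 12.2 CPM with TWEAK (log2 fold change 2.31 ± 0.15, adjusted p = 3.3e-06). Every treated library exceeded the highest untreated one more than 2-fold in both genes. ADAM19 fell by 0.24, a call lost without any of the untreated replicates or TWEAK replicate 3 (adjusted p up to 0.31), and with at least 10 counts demanded in every library the list had 7 rises.

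Keratins changed mostly upward. Of 16 tested 7 rose and 1 fell, a list that does not hold KRT2 or KRT3. KRT5 was tested through its treated libraries, and 6 keratins rose with at least 10 counts demanded in every library. The single fall became 2 without untreated replicate 1 and 3 without TWEAK replicate 2. KRT5, the basal partner of KRT14, went from 10, 5 and 8 to 99, 90 and 61 counts (log2 fold change 3.46 ± 0.28, adjusted p = 1.8e-05), while KRT14 stayed at 0.2 CPM or below in every library. KRT16, an inducible keratin, rose from 0.714–0.908 to 1.63–2.27 CPM and KRT80 from 208–226 to 295–314 CPM. KRT4, a keratin of stratified mucosa, fell from 354–371 to 248–283 CPM. KRT8 (4543–4979 CPM without and 4852–5813 CPM with TWEAK, adjusted p = 0.38) and KRT18 (1949.8–2254 CPM without and 2102–2651 CPM with TWEAK, adjusted p = 0.48), the pair that defines simple epithelium, did not pass the test.

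Markers of other cell types were looked at beside these changes. Of 6 tested leukocyte markers, LAPTM5 and ITGAM rose and CORO1A fell, while PTPRC (CD45), the marker common to leukocytes, had 5 counts or fewer in every library, and 16 of the 22 listed markers had too few counts to be tested. Of 13 basal and myoepithelial markers 6 had enough counts to be tested, KRT5 and TP63 through their treated libraries, so that the share of rises is not a measure of the list. The test called 4 of them higher, led by KRT5. TP63, their transcription factor, went from 5, 3 and 5 to 16, 12 and 22 counts and OXTR from 1.59–1.98 to 3.27–3.34 CPM. Of 5 tested fibroblast and endothelial markers 2 rose, among them CDH5 (VE-cadherin) from 1.51–1.83 to 3.39–4.81 CPM, while PECAM1 had 2 counts or fewer in every library. With at least 10 counts demanded in every library each of these 3 lists had 1 rise. The part of other cells in these values was not tested.

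The HER2 amplicon held calls in both directions, while ERBB2 itself did not pass the test. ERBB2 was at 7107, 7104 and 7569 CPM in untreated and 7147, 7546 and 7186 CPM in TWEAK-treated libraries (log2 fold change 0.006 ± 0.058, adjusted p = 0.97). Its neighbours GRB7, STARD3, PGAP3 and MIEN1 had log2 fold changes between -0.10 and 0.11. Of 29 tested amplicon genes 2 rose (IKZF3 by 0.63, TNS4 by 0.43) and 3 fell (THRA by 0.55, PPP1R1B by 0.44 and CDC6 by 0.21). Over all tested genes 6.6% rose and 3.82% fell. The 3 falls became 1 without untreated replicate 2 or TWEAK replicate 1, 6 without TWEAK replicate 2 and 7 after the correction for GC content and length. Of 17 tested ERBB receptors and EGF-family ligands 3 rose: HBEGF from 0.908–1.14 to 3.002–4.24 CPM, ERRFI1, an inhibitor of these receptors, from 30.9–34.9 to 52.3–59.8 CPM, and RHBDF2, which escorts the sheddase ADAM17, from 32.2–34.2 to 41.7–42.2 CPM; 6 rose without TWEAK replicate 2.

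Luminal transcription factors and hormone receptors changed in both directions, 7 of 36 tested rising and 4 falling. SOX4 rose from 85.4–87.7 to 143–144 CPM, CEBPB from 121–138 to 196–214 CPM and OVOL2 from 11.2–12.9 to 18.1–19.9 CPM. ESR1, barely detected in this line, rose from 0.396–0.553 to 0.962–1.51 CPM (log2 fold change 1.33 ± 0.27, adjusted p = 0.011). TFAP2B fell from 6.54–7.11 to 3.62–4.65 CPM and XBP1 by 0.34 on the log2 scale. FOXA1 (-0.15 ± 0.065), TFAP2A (-0.14 ± 0.058) and EPCAM (-0.16 ± 0.062) were lower in all treated libraries without passing the test. The 4 falls became 2 without any 1 of the untreated replicates or TWEAK replicate 1, 9 without TWEAK replicate 2 and 13 after the correction for GC content and length. SPDEF (-0.29) and CEBPD (-0.42) were among the calls lost.

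Of 24 tested genes of epithelial-mesenchymal transition 4 rose and none fell. CLDN1 (from 2.74–3.51 to 5.93–6.32 CPM) and CLDN4 (from 531–595 to 729–868 CPM), which make tight junctions and mark epithelium, were among them. CDH1 and VIM, the defining pair, were near 0 in both groups. Without TWEAK replicate 2, 9 genes of the list rose and 3 fell. In the TGF-β family 10 of 53 tested genes rose and 5 fell. ID3 rose from 91.0–100.3 to 138–154 CPM, PMEPA1 from 393–420.4 to 548–604 CPM and TGIF2 from 30.3–31.3 to 52.9–62.8 CPM, while the receptor TGFBR1 fell from 299–347 to 201–259 CPM and BMP7 from 232–244 to 168–195 CPM. The 10 rises became 6 without untreated replicate 1 or 2 or TWEAK replicate 3, and the 5 falls became 3 without untreated replicate 2 and 8 without TWEAK replicate 2.

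In genes of AP-1 and of MAPK output the number of calls moved with single libraries. With all 6 libraries the share of rises in both lists lay above the background of 6.6%. The share of falls lay above its background of 3.82% for MAPK output only, as no AP-1 gene fell. Of 29 tested AP-1 genes 3 rose: JUNB from 79.99–93.3 to 125–149 CPM, and ATF5 and FOSL2 by 0.27 and 0.26 on the log2 scale. Only JUNB remained without any 1 of the untreated replicates or without TWEAK replicate 3. Of 27 tested MAPK feedback genes 5 rose, among them EPHA2 (from 30.6–36.8 to 50.5–54.0 CPM) and the phosphatase DUSP1 (from 22.8–23.8 to 28.9–32.2 CPM), and 2 fell. The rises numbered 2 without untreated replicate 1 or 2 or TWEAK replicate 1, 3 without untreated replicate 3 or TWEAK replicate 3 and 9 without TWEAK replicate 2, and the falls at most 1 without any 1 of the untreated replicates or TWEAK replicate 1.

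Polyamine synthesis held a large single rise. ODC1, the first enzyme of polyamine synthesis, was at 192, 184 and 182 CPM without and 498, 527 and 468 CPM with TWEAK (log2 fold change 1.42 ± 0.063, adjusted p = 1.7e-07). It was the only rise by this test among 38 tested genes of NAD, polyamine and methionine metabolism, where 2 rose without untreated replicate 3 or without TWEAK replicate 2. NAMPT, which makes the NAD precursor NMN, was at 151, 151 and 137 CPM without and 145, 125 and 143 CPM with TWEAK, so that the groups overlapped (log2 fold change -0.089 ± 0.074, adjusted p = 0.57). ARG2 (mitochondrial arginase, 39.6% of whose exon length overlaps the opposite strand) fell from 4.58–5.07 to 2.19–2.46 CPM, CTH from 5.81–6.45 to 4.04–4.25 CPM and MTR (methionine synthase) from 45.5–51.0 to 26.8–37.7 CPM. There were 5 falls in this list, 3 without untreated replicate 1 or 2 or TWEAK replicate 3, 12 without TWEAK replicate 2 and 15 after the correction for GC content and length.

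In retinoid metabolism 6 of 20 tested genes rose and 3 fell. RDH16, a retinol dehydrogenase, was at 1.55, 1.47 and 1.97 CPM without and 20.6, 22.8 and 19.2 CPM with TWEAK (log2 fold change 3.65 ± 0.13, adjusted p = 3.8e-08). STRA6, the receptor for retinol-binding protein, was at 2.41, 2.34 and 2.25 CPM without and 11.9, 12.2 and 15.3 CPM with TWEAK (log2 fold change 2.49 ± 0.13, adjusted p = 7.5e-07). No treated library came near the untreated range in either gene, while GPRC5A, named for its induction by retinoic acid, fell as given above. ALDH1A3, which makes retinoic acid and has 32.1% of its exon length overlapped on the opposite strand, fell by 0.30 on the log2 scale, a call lost without untreated replicate 2 or 3 (adjusted p up to 0.14), and the falls then numbered 1.

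Of 24 tested metallothioneins and zinc transporters 3 fell and 1 rose. MT2A, MT1G and MT1X (from 10.5–13.8 to 7.12–8.93 CPM) all fell, with every treated library below every untreated one. Their transcripts are near-identical in part, so reads may be split among them. The 3 falls kept their calls with any library left out, and numbered 7 after the correction for GC content and length, while the single rise, SLC30A2, was lost in each of those 6 fits and 2 other members rose without TWEAK replicate 2. In the AHR list of 14 tested genes, CYP1A1 and TIPARP, both classical targets, fell, and CYP1B1, another target, rose from 154–168 to 178–229.7 CPM with KYNU and KMO, enzymes of the kynurenine route (by 0.60 and 0.54 on the log2 scale). TIPARP was lost without any 1 of the untreated replicates or TWEAK replicate 3 (adjusted p up to 0.20), and CYP1B1 without untreated replicate 2 or 3 or TWEAK replicate 1 (up to 0.13).

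In lipid synthesis 4 of 43 tested genes rose and 5 fell. FASN, SCD and ELOVL6 of fatty-acid synthesis fell, with THRSP, a lipogenic regulator, from 7.38–8.17 to 4.62–5.604 CPM, whereas SQLE, DHCR7 and FDFT1 of the cholesterol branch rose by 0.21, 0.19 and 0.18 on the log2 scale. The 4 rises became 1 or 2 without any library other than TWEAK replicate 2, and each of the 3 cholesterol genes was lost in some of these fits (adjusted p up to 0.23, 0.33 and 0.34), and the falls numbered 2 without any 1 of the untreated replicates. Without TWEAK replicate 2 there were 9 rises and 8 falls, and after the correction for GC content and length 7 and 14. LPIN1 rose from 60.1–64.5 to 81.5–91.2 CPM and THRSP and FASN fell in every fit with a library left out. Of 54 tested NRF2 regulators and antioxidant genes 10 rose and 1 fell: SQSTM1 (p62) was at 396, 387 and 419.8 CPM without and 672, 770.3 and 648 CPM with TWEAK (log2 fold change 0.80 ± 0.073, adjusted p = 4.3e-05), TRIM16 rose from 27.8–29.5 to 46.1–57.2 CPM, together with its near-identical copy TRIM16L, and GSR (glutathione reductase) fell from 128–132 to 102–109 CPM. Without TWEAK replicate 2 there were 16 rises and 5 falls, and after the correction for GC content and length 15 and 6.

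Of 89 tested cell-cycle genes 1 rose and 9 fell, with a median log2 fold change of -0.096 and 14 members above 0. The falls were small. ORC6 fell from 39.3–40.95 to 31.1–33.5 CPM, RFC3 from 58.4–63.7 to 45.7–54.6 CPM and MCM10 from 39.5–42.7 to 30.1–37.0 CPM, all of them genes of DNA replication, while CDC20, of mitotic exit, rose from 111–117 to 125–149 CPM. The rise of CDC20 was lost without untreated replicate 1 or 2, and 2 genes rose without TWEAK replicate 2. The 9 falls became 1 without untreated replicate 1 or TWEAK replicate 1, none without untreated replicate 2, 26 without TWEAK replicate 2 and 35 after the correction for GC content and length. None of the 4 named genes kept its call in every fit. In the apoptosis list of 43 tested genes, CASP4, an inflammatory caspase, rose from 9.32–9.56 to 17.6–21.2 CPM, CASP14 from 1.82–2.45 to 5.50–7.55 CPM and BBC3 (PUMA) by 0.61 on the log2 scale (lost without untreated replicate 1 or 2, adjusted p up to 0.11), 7 rising with BIRC3 and 1 falling (BMF, by 0.29, lost without untreated replicate 2 at an adjusted p of 0.17). The rises numbered 4 or 3 when untreated replicate 1 or 2 was left out, and 13 when TWEAK replicate 2 was. The falls numbered 2 without TWEAK replicate 1 or 3 and 3 without TWEAK replicate 2.

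Of 12 tested genes of IGF-binding proteins and insulin and IGF signalling 3 rose, all of them binding proteins, and none fell. With any library left out 3 or 4 rose, and 1 fell without TWEAK replicate 2. IGFBP3 was at 10.2, 12.5 and 11.5 CPM without and 39.3, 41.7 and 36.8 CPM with TWEAK (log2 fold change 1.79 ± 0.091, adjusted p = 4.8e-07). IGFBP5, by far the most abundant, was at 560.0, 543 and 541 CPM without and 842, 719.5 and 775 CPM with TWEAK (log2 fold change 0.51 ± 0.066, adjusted p = 0.00056). IGFBP7 rose from 2.45–3.45 to 6.51–7.47 CPM.

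The SKBR3 response was then set against that of MDA-MB-453 with the interaction of line and TWEAK over all 12 libraries. Of 17201 genes, 579 (3.37%) responded differently, 406 with a larger and 173 with a smaller log2 fold change in SKBR3. Of the 1633 genes changed in SKBR3, 381 rises were larger and 131 falls more negative in SKBR3, and 7 differed in the other direction. These genes were picked by their SKBR3 fold change, which enters the same test, so this direction was largely fixed by the choice. Among genes changed in SKBR3 and at 1 CPM or more in both lines, VASH2 differed most: in MDA-MB-453 it was at 11.8, 14.03 and 13.3 CPM without and 14.97, 16.7 and 12.9 CPM with TWEAK (log2 fold change 0.17 ± 0.094, adjusted p = 0.54), a difference of 5.38 ± 0.25 between the lines (adjusted p = 2e-09). With TWEAK, the SKBR3 libraries (15.9–21.6 CPM) lay above the untreated ones of MDA-MB-453. CXCR4, a chemokine receptor, stayed below the level of the other line: MDA-MB-453 was at 28.7, 27.1 and 27.7 CPM in untreated libraries, while SKBR3 went from 5, 1 and 5 to 56, 71 and 22 counts, a difference of 3.81 ± 0.49 (adjusted p = 0.00016).

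IL27RA (difference between the lines 4.50 ± 0.22), TRAF1 (2.89 ± 0.36) and RDH16 (2.79 ± 0.20) were the other 3 of the 5 largest differences, with adjusted p of 2e-09, 0.00015 and 2.6e-07. In the other direction, CYP1A1 fell in SKBR3 and rose in MDA-MB-453, from 2.30, 4.04 and 2.92 to 5.59, 5.76 and 5.18 CPM there (log2 fold change 0.83 ± 0.16, adjusted p = 0.015). The difference was -2.81 ± 0.28 (adjusted p = 1e-05). COL5A2 did not pass the test in MDA-MB-453 (log2 fold change 0.12 ± 0.16; difference -1.60 ± 0.18, adjusted p = 5.2e-05). CDCA7L fell in both lines, by less in MDA-MB-453 (-0.35 ± 0.053; difference -1.65 ± 0.11, adjusted p = 1.3e-07), and MT2A differed by -1.40 ± 0.13 (adjusted p = 5.1e-06). TNFSF15 rose in both lines and less in SKBR3 (-1.87 ± 0.46, adjusted p = 0.040), a call lost without SKBR3 untreated replicate 2 or MDA-MB-453 untreated replicate 1 or 2.

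The core of the pathway was split. The interaction did not pass for BIRC3 (-0.15 ± 0.21, adjusted p = 0.91), NFKB2 (0.12 ± 0.087, adjusted p = 0.70), MAP3K14 (-0.38 ± 0.12, adjusted p = 0.11) or TNFRSF12A (0.20 ± 0.10, adjusted p = 0.53), which does not show that the lines respond alike. RELB rose less in SKBR3, where it started higher (15.4, 14.99 and 18.6 CPM in untreated SKBR3 and 1.36, 1.26 and 1.34 CPM in untreated MDA-MB-453), with a difference of -1.30 ± 0.21 (adjusted p = 0.0016). TRAF2 (0.75 ± 0.086, adjusted p = 6.1e-05) and NFKB1 (0.36 ± 0.076, adjusted p = 0.015) rose more in SKBR3.

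**Figure D4:**
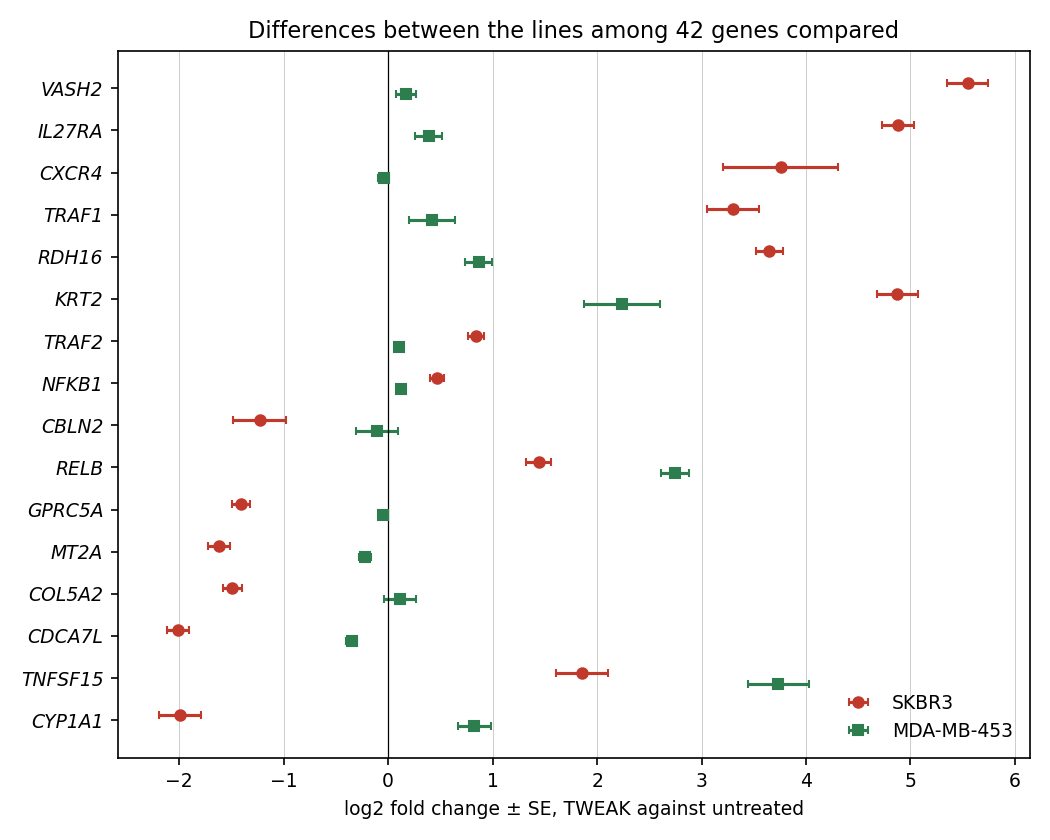
Log2 fold change of TWEAK against untreated, with bars of 1 standard error, in SKBR3 (red circles) and MDA-MB-453 (green squares, each line fitted on its own 6 libraries) for 16 genes tested in both lines whose change differed between them, out of 42 compared one by one. The 42 are the largest rises and falls, the tested fixed genes (receptor and NF-κB pathway, ERBB2 and NAMPT) and the 10 genes picked for their difference. VASH2, IL27RA, CXCR4 and TRAF1 rise in SKBR3 and lie below 0.5 in MDA-MB-453, while CYP1A1 falls in SKBR3 and rises in MDA-MB-453.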

How the data were processed

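Poly-A RNA of SKBR3 and MDA-MB-453 was sequenced by the study, 3 untreated and 3 TWEAK-treated libraries per line. The deposited values are raw read counts per Ensembl gene, which the authors made with Trimmomatic, STAR and featureCounts on hg38; versions and the strand setting are not given in the sources used here. Libraries were grouped by their labels. The total counts are given in the report, and intervals of promoter shares cover counting error only.

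Counts of the 6 SKBR3 libraries were fitted with edgeR 4.0.16 (R 4.3.3; filterByExpr, TMM, two-sided quasi-likelihood test, Benjamini-Hochberg adjustment over all 15661 genes, calls at 0.1), and the interaction of line and TWEAK over all 12. CPM use TMM library sizes, and the fold change adds a prior count of 0.125. On simulated counts of 15424 genes for the SKBR3 comparison (10 draws, 200 genes changed), 87.1% of 2-fold and 97% of 4-fold changes were recovered, and 12.2% of the calls were unchanged genes. The simulated counts held no changes below 2-fold, no dependence on GC content or length and no library that stood apart. These rates therefore need not hold for the calls reported here, least of all for the smaller changes. DESeq2 1.42.0, other scalings, filters, a correction for GC content and length, the replicate number as a block and leaving out each library were alternatives.

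Named genes were the 12 largest rises and falls and the 8 largest gains and losses of CPM among calls with groups apart (the former at 1 CPM or more), up to 4 rises and 3 falls per gene list, fixed pathway and marker genes, and the 5 largest and smallest differences between lines. GRB7, STARD3, PGAP3, MIEN1 and SLC30A2 were named after their values were seen. The gene lists, these rules and the genes to be described were chosen with earlier results of these data known. Of 62696 identifiers 71 matched no annotated gene. Some named genes are not reported here.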

Additional observations from a re-analysis of the deposited data

Results flagged for a closer look

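Of 42 genes compared between the lines one by one, 18 had a TWEAK response that differed by the interaction of line and TWEAK over the 12 libraries (edgeR's quasi-likelihood test, adjusted over all genes). Over all 17201 genes 3.37% did. The 42 hold the 5 largest differences in each direction and the largest SKBR3 rises and falls, whose fold changes enter the same test, so the count was largely fixed by the choice and cannot be read against that share. Values are log2 fold changes in SKBR3 minus those in MDA-MB-453 with their standard errors.

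The change was higher in SKBR3 for 10 genes. LAPTM5, near 0 in untreated SKBR3 and in every MDA-MB-453 library, had a fitted difference of 6.67 ± 1.07 (adjusted p = 0.0013; 6.14 to 8.23 over the alternative fits) that depends on the prior count. The difference was 5.38 ± 0.25 for VASH2 (adjusted p = 2e-09), 4.50 ± 0.22 for IL27RA (adjusted p = 2e-09), 3.81 ± 0.49 for CXCR4 (adjusted p = 0.00016) and 2.89 ± 0.36 for TRAF1 (adjusted p = 0.00015). It was 2.79 ± 0.20 for RDH16 (adjusted p = 2.6e-07), 0.75 ± 0.086 for TRAF2 (adjusted p = 6.1e-05) and 0.36 ± 0.076 for NFKB1 (adjusted p = 0.015). KRT2 rose in both lines with a difference of 2.64 ± 0.56 (adjusted p = 0.014), which was not called without MDA-MB-453 untreated replicate 2. HYAL4, with hardly a count in MDA-MB-453, had a fitted difference of 10.12 ± 2.72 (adjusted p = 0.076) that depends on the prior count and was not called in 8 alternative settings, among them those without any 1 of the SKBR3 untreated replicates.

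The change was lower in SKBR3 for 8 genes. CYP1A1 moved in opposite directions, with a difference of -2.81 ± 0.28 (adjusted p = 1e-05). The difference was -1.65 ± 0.11 for CDCA7L (adjusted p = 1.3e-07), -1.60 ± 0.18 for COL5A2 (adjusted p = 5.2e-05), -1.40 ± 0.13 for MT2A (adjusted p = 5.1e-06) and -1.36 ± 0.092 for GPRC5A (adjusted p = 1.1e-07). RELB rose in both lines with a difference of -1.30 ± 0.21 (adjusted p = 0.0016), and TNFSF15 with one of -1.87 ± 0.46 (adjusted p = 0.040). CBLN2 differed by -1.12 ± 0.31 (adjusted p = 0.080) and was not called in 10 alternative settings, 8 of them with a library left out. The causes of these differences were not tested.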

How the results depend on the processing

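No named gene with a call changed the sign of its log2 fold change under any setting tried, but the balance of rises and falls did change. The falls in SKBR3 numbered 1068 with all 12 libraries in one fit, 1737 after the correction for GC content and length, 1448 with that correction and the replicate block together and 363 at an adjusted p of 0.05, against 599; with 1 library left out rises ranged from 686 to 1589 and falls from 240 to 1191. With the same correction the rises were 1455 and thus fewer than the falls, so the split of the calls depends on it. The median log2 fold change of all tested genes was -0.0074 and turned to 0.0089 without the filter on low counts. Interaction calls smaller in SKBR3 numbered 95 at an adjusted p of 0.05, against 173; with 1 library left out the larger ones ranged from 304 to 645 and the smaller ones from 90 to 505, both highest without SKBR3 TWEAK replicate 2. Of 216 named genes compared, 6 lost the call with DESeq2, 47 when untreated replicate 2 was left out and 2 when TWEAK replicate 2 was. The causes were not tested.

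The replicate number as a block (paired analysis) gave 824 rises and 387 falls in SKBR3, and 321 larger and 101 smaller interaction calls. Deviations of same-numbered libraries from their group means correlated across genes at 0.28, -0.23 and -0.36, and not every library correlated best with its own number. These values do not show a pairing by number. They cannot exclude one either, because the deviations cancel out within a group and are not independent. The study states that its cell line experiments were repeated independently on different days.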

Other observations

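Housekeeping programmes gave no calls in the main edgeR fit of the 6 libraries, though other settings gave some. None of 76 tested genes for cytosolic ribosomal proteins passed edgeR's test, although all 76 had a log2 fold change above 0, with a median of 0.17; 12 were higher at an unadjusted p of 0.05 or less, DESeq2 called none, and 17 rose without a filter on low counts, 12 after the correction for GC content and length, 4 without TWEAK replicate 3 and 1 without TWEAK replicate 2. None of 76 nuclear genes of oxidative phosphorylation passed (60 above 0, median 0.060; 1 at an unadjusted p of 0.05 or less, and 1 by DESeq2), and none of the 13 protein-coding genes of the mitochondrial genome did (1 at an unadjusted p of 0.05 or less, none by DESeq2). Without TWEAK replicate 2, however, 4 of the nuclear genes were called lower and 1 higher, and of those 13 genes 1 lower and 2 higher; 1 nuclear gene was also higher without TWEAK replicate 3.

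Among clock genes, BHLHE40, a repressor of the circadian oscillator, rose from 36.4–41.7 to 91.9–101 CPM (log2 fold change 1.29 ± 0.073, edgeR adjusted p = 1.1e-06) and kept its call with any library left out. Its paralogue BHLHE41 fell by 0.77 on the log2 scale, a call lost without any 1 of the untreated replicates or TWEAK replicate 1 or 2 (adjusted p up to 0.17). Of 20 tested clock genes 2 rose and 2 fell. The rises became 1 without untreated replicate 1 or 2 or TWEAK replicate 1. The falls became 1 without untreated replicate 1 and 0 without untreated replicate 2 or 3 or TWEAK replicate 1.

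Of 39 tested genes of hypoxia and glycolysis 4 rose and 3 fell. ADM (adrenomedullin) rose from 1.23–1.48 to 2.34–2.73 CPM, EGLN3, an oxygen-sensing prolyl hydroxylase, from 4.80–6.31 to 7.62–10.8 CPM and SLC2A1 (GLUT1, the glucose transporter) from 356–381 to 490.0–513 CPM. HK2 (hexokinase 2), which takes the next step after glucose uptake, fell from 122–137 to 88.3–109 CPM. PFKFB3 and PDK1 fell by 0.30 and 0.37 on the log2 scale and lost their calls without any 1 of the untreated replicates (adjusted p up to 0.12 and 0.28), which left 1 fall, while 7 fell without TWEAK replicate 2, 5 without TWEAK replicate 3 and 10 after the correction for GC content and length; falls outnumbered rises in these 3 fits.

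Beside VASH2, 3 of the 24 tested vasohibin and tubulin genes rose, all by little: TTLL4, a tubulin polyglutamylase, by 0.31, TUBA1C by 0.30 and TUBB by 0.18 on the log2 scale. TTLL4 was lost without untreated replicate 1, TUBA1C without untreated replicate 2 and TUBB in 5 of the 6 fits with a library left out (adjusted p up to 0.10, 0.11 and 0.33), so that 2 rose without untreated replicate 1 or 2. No gene of this list fell in the main edgeR fit, while 3 did without TWEAK replicate 2 and 4 after the correction for GC content and length. In the unfolded protein and integrated stress response 2 of 36 tested genes rose, PPP1R15A (GADD34) by 0.46 and DDIT4 by 0.39 on the log2 scale, and 2 fell, XBP1 by 0.34 and VLDLR by 0.40. The falls numbered 1 without untreated replicate 1 or 2 or TWEAK replicate 1, and 6 without TWEAK replicate 2.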
